A study of Mus musculus with 11 samples.

Results

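Epidermal cells that carried the tdTomato reporter (tdT) were compared by their surface Sca-1. The comparison takes 6 of the 11 libraries of the study, chosen by their titles: 3 libraries of Sca-1+ tdT+ cells and 3 libraries of Sca-1neg tdT+ cells. All libraries came from male CD4Cre R26-tdT mice on a C57Bl6/N background, and from their dorsal skin. In these mice the Cd4 promoter drives Cre, and Cre switches on tdT for good in the cell and its progeny, so the reporter records past activity of that promoter and not the present cell type. Skin was treated with thermolysin, and FACS divided the CD49f+ CD34+ cells into Sca-1+ tdT+, Sca-1neg tdT+, Sca-1+ tdT- and Sca-1neg tdT- fractions. The tdT- fractions, with 2 Sca-1+ and 3 Sca-1neg libraries, carried the same alleles and entered the model as 2 further groups. Each library pooled 2 mice, replicate 1 of each group at 29 weeks of age and the other replicates at 32 weeks.

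The hair follicle keeps a reservoir of stem cells in its bulge, a niche below the sebaceous gland. Bulge cells carry CD34 and the integrin CD49f, are held quiescent by BMP signals, and enter a new hair cycle when Wnt and Hedgehog signals prevail. Keratinocytes of the interfollicular epidermis and the upper follicle carry Sca-1, a small GPI-anchored protein of the Ly6 family, and bulge keratinocytes largely lack it. Sca-1 is also found on many lymphocytes and endothelial cells. Mouse epidermis holds resident T cells, among them dendritic epidermal T cells with a gamma-delta receptor.

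The 6 libraries held 36593970, 17409131 and 19944731 counts in Sca-1+ tdT+ replicates 1 to 3, and 24764941, 18042009 and 18195195 counts in Sca-1neg tdT+ replicates 1 to 3. Levels are given as CPM, the share of a library that a gene takes after scaling by TMM. Tracer transcript made up 254, 224 and 307 CPM of Sca-1+ tdT+ replicates 1 to 3, against 133, 2.05 and 252 CPM of Sca-1neg tdT+ replicates 1 to 3. The library labelled Sca-1neg tdT+ replicate 2 therefore lacked the tracer beyond the 2.54 to 4.89 CPM seen in tdT- libraries. Sca-1neg tdT+ replicates 1 and 2 also held liver transcripts: the summed level of 20 liver genes was 20.4, 50.5 and 58.8 CPM in Sca-1+ tdT+ replicates 1 to 3, and 33300, 16000 and 120.5 CPM in Sca-1neg tdT+ replicates 1 to 3. Another such library was Sca-1neg tdT- replicate 2, with 18750 CPM. Sca-1neg tdT+ replicate 3 was the one library of its group that held the tracer and few liver transcripts, and results are also given with it as the only library of its group. No pair of libraries agreed within sampling noise. The labels give each library as a pool of mice and say no more of how replicates were kept apart, so p-values measure the spread between these pools.

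**Figure D1:**
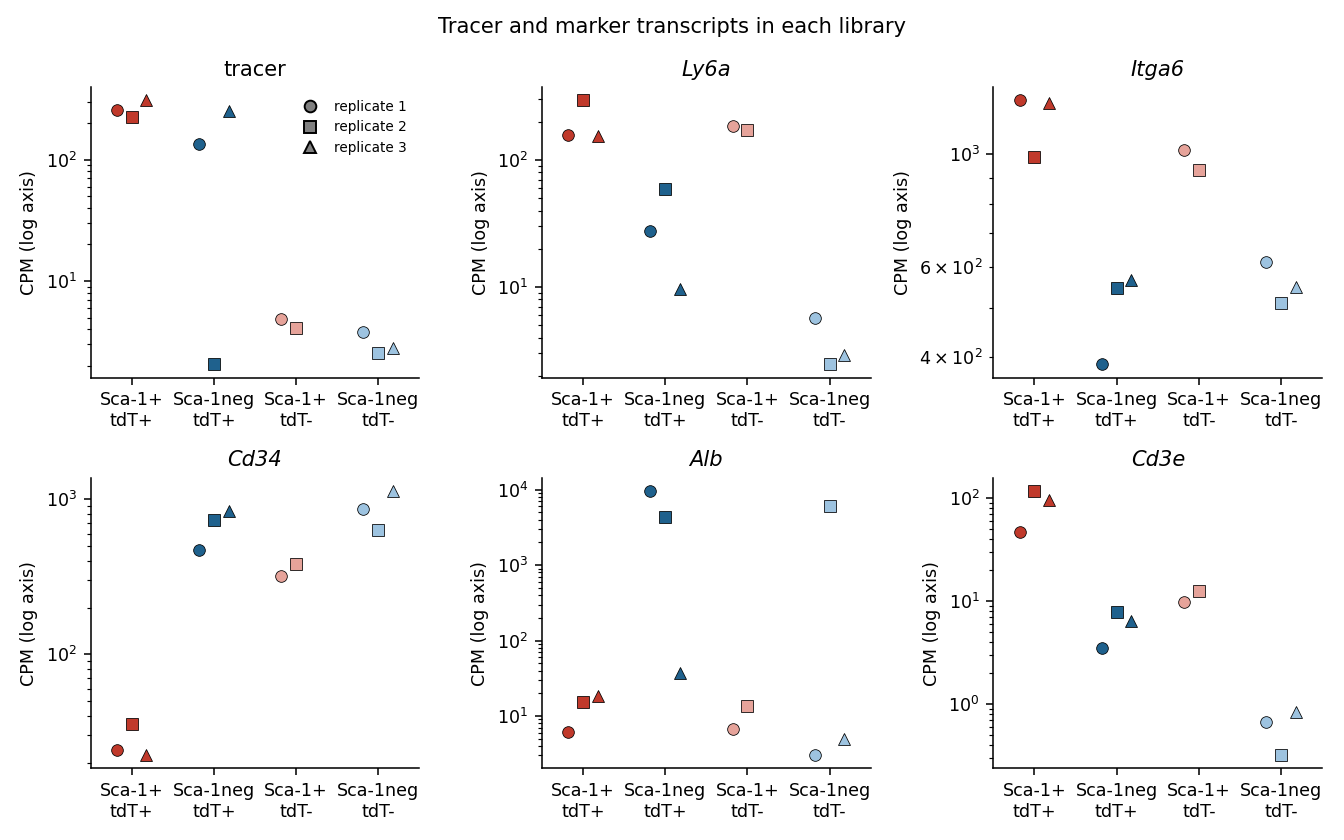
Level of the tracer and of 5 transcripts in each of the 11 libraries, in CPM on a log axis, by group and replicate; each point is 1 library. The library labelled Sca-1neg tdT+ replicate 2 has little tracer, Alb is high in Sca-1neg tdT+ replicates 1 and 2 and in Sca-1neg tdT- replicate 2, and Cd34 and Ly6a separate the Sca-1+ tdT+ from the Sca-1neg tdT+ libraries without overlap.

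Of 20307 genes tested, 1206 (5.94%) were higher and 1366 (6.73%) lower in Sca-1+ tdT+ than in Sca-1neg tdT+ libraries, by edgeR's quasi-likelihood test at an adjusted p under 0.05. The groups did not overlap for 3119 genes (15.4%) that were higher and 3056 genes (15%) that were lower, whatever their test. The median log2 fold change over all genes tested was -0.07. Counts of list members below stand against these shares, and a count near them is not read as a result about its list. Fold changes below are log2, Sca-1+ tdT+ over Sca-1neg tdT+, with SE, and adjusted p-values are from that test unless named otherwise. Leaving out Sca-1neg tdT+ replicate 1 gave 610 higher genes, and leaving out Sca-1+ tdT+ replicate 3 gave 785. With replicate 3 as the only Sca-1neg tdT+ library, 698 genes were higher and 831 lower, of which 386 and 748 were among those called with all libraries.

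The sort markers came first. Ly6a, which encodes Sca-1 and lies at chr15:74994877-74998031 (mm10), measured 158, 294 and 153 CPM in Sca-1+ tdT+ libraries, against 27.6, 59.2 and 9.64 CPM in Sca-1neg tdT+ libraries. The groups did not overlap, and the difference was 2.65 ± 0.64 with an adjusted p of 0.0311. That call was lost when any Sca-1+ tdT+ library, either Sca-1+ tdT- library or Sca-1neg tdT+ replicate 1 was left out, with adjusted p up to 0.103 in the last case. Itga6, the gene of the other gate marker CD49f (chr2:71745616-71858416), measured 1276, 988 and 1260 CPM in Sca-1+ tdT+ libraries, against 387, 547 and 566 CPM in Sca-1neg tdT+ libraries. It was higher by 1.23 ± 0.18 (adjusted p = 0.00193). Cd4, whose promoter drives Cre, measured 4.64, 4.09 and 0.877 CPM in Sca-1+ tdT+ libraries, against 1.13, 0.0536 and 1.21 CPM in Sca-1neg tdT+ libraries, and the groups overlapped (adjusted p = 0.249).

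Cd34 transcript was far lower in the Sca-1+ tdT+ than in the Sca-1neg tdT+ libraries, although both fractions were sorted from a CD34+ gate. The gene (chr1:194938819-194961279) encodes the sialomucin that marks the bulge. It measured 24.3, 35.7 and 22.4 CPM in Sca-1+ tdT+ libraries, against 468, 735 and 842 CPM in Sca-1neg tdT+ libraries. Every Sca-1neg tdT+ library was far above every Sca-1+ tdT+ library, a difference of -4.63 ± 0.32 (adjusted p = 5.43e-05). Cd34 is shown by its promoter because it carries the largest contrast among the gate markers and belongs to the bulge genes that moved together; the Cd3d and Cd3e promoters follow because both genes rose with the T cell genes described below. Sequences run from 250 bases before to 50 bases after the start site, are from RefSeq (GRCm38.p6), and read 5′ to 3′ on the gene's strand. Both strands were searched for short cores of the sites of 4 factor families, and capitals mark each match. The core searched for ETS factors was AGGAAGT. For RUNX factors it was TGTGGT. For GATA factors the letters were AGATAA, and GLI factors were searched by CCACCCA.
Cd34, chr1:194938571-194938870, plus strand: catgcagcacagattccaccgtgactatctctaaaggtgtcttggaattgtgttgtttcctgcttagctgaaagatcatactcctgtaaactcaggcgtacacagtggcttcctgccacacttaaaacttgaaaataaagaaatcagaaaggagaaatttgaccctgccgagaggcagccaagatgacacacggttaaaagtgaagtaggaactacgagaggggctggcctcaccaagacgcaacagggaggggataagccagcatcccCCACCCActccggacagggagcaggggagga
Cd3d, chr9:44981536-44981835, plus strand: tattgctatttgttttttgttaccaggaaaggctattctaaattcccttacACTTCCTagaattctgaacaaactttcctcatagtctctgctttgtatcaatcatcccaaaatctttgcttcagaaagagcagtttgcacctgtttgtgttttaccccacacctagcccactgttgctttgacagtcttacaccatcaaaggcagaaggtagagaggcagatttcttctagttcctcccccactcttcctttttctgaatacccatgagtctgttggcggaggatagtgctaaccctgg
Cd3e, chr9:45009562-45009861, minus strand: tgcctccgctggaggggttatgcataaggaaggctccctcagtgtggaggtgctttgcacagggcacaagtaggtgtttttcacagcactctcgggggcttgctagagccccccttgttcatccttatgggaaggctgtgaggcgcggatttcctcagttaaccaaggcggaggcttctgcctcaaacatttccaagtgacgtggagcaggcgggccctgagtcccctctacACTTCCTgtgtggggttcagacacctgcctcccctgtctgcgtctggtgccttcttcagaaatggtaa
The Cd34 window held 1 GLI match, and no other motif searched. The GLI core occurred in 9.3% of 32851 promoters of this length. It occurred in 4 of 22 promoters of bulge surface genes and in 4 of 20 promoters of T cell genes. Those promoters belonged to 18 bulge surface genes and 15 T cell genes. The Cd3d and Cd3e windows each held 1 ETS match, read as ACTTCCT since it lies on the opposite strand. The ETS core occurred in 9.35% of all promoters and in 7 of the 20 promoters of T cell genes. The window of Cd3g, the third neighbouring chain, held no ETS match, 1 GATA match and 2 GLI matches, and its sequence is not shown. No matches overlapped in these windows, and a match is a run of letters and was not tested as a binding site.

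Bulge stem cell transcription factors were lower in Sca-1+ tdT+ libraries. Of 13 on the list, all tested, 12 fell and none rose, with a median log2 fold change of -1.83, against 6.73% lower and a median of -0.07 over all genes. Lhx2, a LIM-homeodomain factor that maintains the bulge (chr2:38339281-38369733), measured 21.5, 42.7 and 28.5 CPM in Sca-1+ tdT+ libraries, against 387, 452 and 612 CPM in Sca-1neg tdT+ libraries. No library came near the other group, and the difference was -3.97 ± 0.36 (adjusted p = 0.000154). Tcf7l1, a repressor of Wnt targets in follicle stem cells (chr6:72626378-72789254), measured 3.04, 3.29 and 3.51 CPM in Sca-1+ tdT+ libraries, against 39.1, 25 and 47.5 CPM in Sca-1neg tdT+ libraries. The Sca-1+ tdT+ libraries lay close together and the Sca-1neg tdT+ libraries varied more, with a difference of -3.50 ± 0.26 (adjusted p = 6.02e-05). Tbx1, a T-box factor needed for repeated stem cell renewal in the follicle, averaged 25.1 ± 5.7 CPM in Sca-1+ tdT+ libraries, against 274.9 ± 43 CPM in Sca-1neg tdT+ libraries (SD, n = 3 each). Id2, an inhibitor of bHLH factors and a BMP target, averaged 31.6 ± 7.3 CPM in Sca-1+ tdT+ libraries, against 147.9 ± 31 CPM in Sca-1neg tdT+ libraries (SD, n = 3 each). These 4 are the members with the lowest p.

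Other factors on the list were also lower. Sox9, which specifies follicle stem cells and is named here after its values were seen, measured 92.6, 108 and 163 CPM in Sca-1+ tdT+ libraries, against 442, 364 and 833 CPM in Sca-1neg tdT+ libraries. Its difference was -2.17 ± 0.38 (adjusted p = 0.00534). Runx1, also named after its values were seen, promotes stem cell activation and measured 44.7, 63.3 and 72.5 CPM in Sca-1+ tdT+ libraries, against 122, 85.6 and 162 CPM in Sca-1neg tdT+ libraries, a difference of -1.03 ± 0.29 (adjusted p = 0.0428). The Runx1 call was lost in 7 of the 11 fits that left out 1 library, with the highest adjusted p, 0.13, without Sca-1+ tdT+ replicate 1. Hopx, a homeodomain-only protein of quiescent stem cells, was the member that did not pass (adjusted p = 0.0527), at 67.3, 96.7 and 68.8 CPM in Sca-1+ tdT+ libraries, against 110, 116 and 155 CPM in Sca-1neg tdT+ libraries. Counts of lower factors ran from 8, without Sca-1+ tdT+ replicate 1, to 12 over the fits that left out 1 library. With replicate 3 as the only Sca-1neg tdT+ library, 12 were lower.

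Genes for surface, secreted and matrix proteins of the bulge moved the same way. Of 24 tested, 23 fell and none rose, with a median of -3.24. Il31ra, a receptor chain for the cytokine IL-31, measured 9.09, 7.89 and 9.91 CPM in Sca-1+ tdT+ libraries, against 182, 460 and 447 CPM in Sca-1neg tdT+ libraries. It had the lowest fold change on the list, -5.34 ± 0.46 (adjusted p = 0.000154). Ltbp2, a latent TGF-beta binding protein of the matrix, measured 10.1, 5.51 and 6.61 CPM in Sca-1+ tdT+ libraries, against 156, 343 and 261 CPM in Sca-1neg tdT+ libraries, a difference of -5.08 ± 0.39 (adjusted p = 8.52e-05). In both genes Sca-1neg tdT+ replicate 1 was the lowest library of its group and still far above the Sca-1+ tdT+ libraries.

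Dkk3, a secreted protein of the Dickkopf family, averaged 28.1 ± 7.7 CPM in Sca-1+ tdT+ libraries, against 371.9 ± 85 CPM in Sca-1neg tdT+ libraries (SD, n = 3 each; -3.73 ± 0.33, adjusted p = 0.000121). Lgr5, the R-spondin receptor of cycling follicle stem cells and named after its values were seen, measured 9.09, 19.0 and 7.74 CPM in Sca-1+ tdT+ libraries, against 173, 101 and 204 CPM in Sca-1neg tdT+ libraries. That was a difference of -3.74 ± 0.41 (adjusted p = 0.000528). Krt15, a keratin shared by bulge and basal epidermis and likewise named after its values were seen, moved least among those that fell. It measured 4259, 3018 and 5040 CPM in Sca-1+ tdT+ libraries, against 6274, 6312 and 9217 CPM in Sca-1neg tdT+ libraries (-0.82 ± 0.23, adjusted p = 0.0385). The Krt15 call was lost in 9 of the 11 fits that left out 1 library (highest adjusted p = 0.0935, without Sca-1neg tdT+ replicate 3). Col17a1, the hemidesmosomal collagen of all basal keratinocytes, was the member that did not pass, at 7600, 4048 and 6029 CPM in Sca-1+ tdT+ libraries, against 4040, 5113 and 6429 CPM in Sca-1neg tdT+ libraries (adjusted p = 0.669). Counts of lower members ran from 17, without Sca-1+ tdT+ replicate 1, to 23 over the fits that left out 1 library, and 20 were lower with replicate 3 alone in its group.

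**Figure D2:**
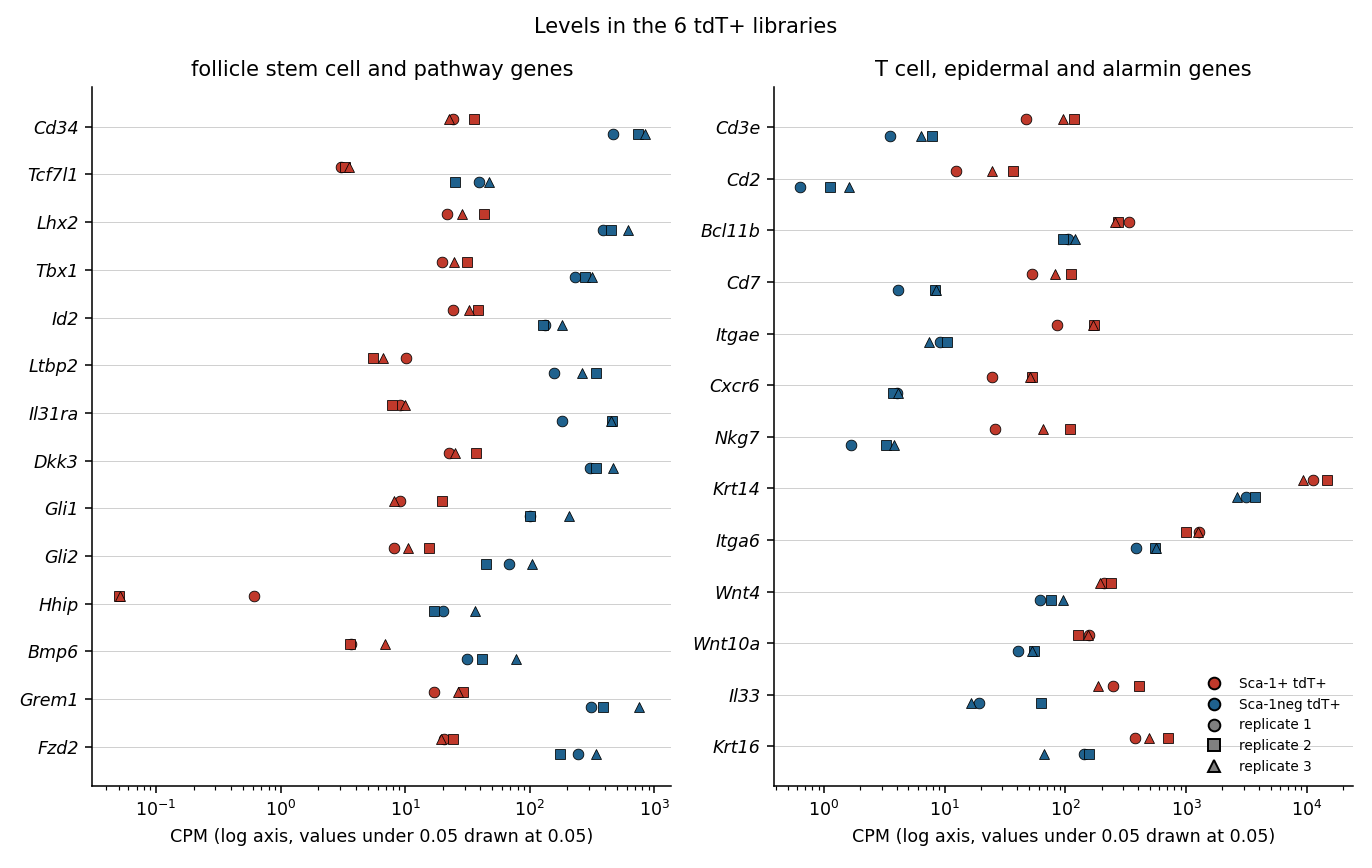
Levels of named genes in the 6 tdT+ libraries, in CPM on a log axis; each point is 1 library, red for Sca-1+ tdT+ and blue for Sca-1neg tdT+, with the symbol giving the replicate. The 3 Sca-1+ tdT+ libraries lie below all 3 Sca-1neg tdT+ libraries for the follicle and pathway genes on the left and above them for the T cell, epidermal and alarmin genes on the right.

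Hedgehog pathway genes were lower in part. Hedgehog ligands bind the receptor Ptch1, which frees Smo to activate the Gli factors, and Gli1, Ptch1 and Hhip are themselves targets of the pathway. All 14 genes on the list were tested: 8 fell and none rose, with a median of -1.21. The ligand Shh averaged 0.48 ± 0.72 CPM in Sca-1+ tdT+ libraries, against 0.40 ± 0.30 CPM in Sca-1neg tdT+ libraries, and did not pass the test (SD, n = 3 each; edgeR adjusted p = 0.93). The ligand Ihh averaged 0.15 ± 0.18 CPM in Sca-1+ tdT+ libraries, against 0.54 ± 0.71 CPM in Sca-1neg tdT+ libraries (edgeR adjusted p = 0.539). Among receptors, Boc, a co-receptor of Hedgehog ligands (chr16:44485049-44558897), measured 77.3, 55.6 and 78.8 CPM in Sca-1+ tdT+ libraries, against 177, 222 and 346 CPM in Sca-1neg tdT+ libraries, a difference of -1.81 ± 0.26 (adjusted p = 0.00149).

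Hhip, a decoy receptor that binds the ligands (chr8:79965851-80058006), measured 0.613, 0 and 0.0516 CPM in Sca-1+ tdT+ libraries, against 20.1, 17 and 36.1 CPM in Sca-1neg tdT+ libraries (adjusted p = 0.00402). Ptch1, named after its values were seen, measured 43.6, 51.8 and 45.5 CPM in Sca-1+ tdT+ libraries, against 106, 59.2 and 132 CPM in Sca-1neg tdT+ libraries (-1.08 ± 0.28, adjusted p = 0.0295). The Ptch1 call was lost without Sca-1neg tdT+ replicate 1 or 3 and without any 1 of the Sca-1+ tdT+ libraries, with adjusted p from 0.0569 to 0.0923. Among the effectors, Gli1 (chr10:127329882-127341974) measured 9.06, 19.6 and 8.10 CPM in Sca-1+ tdT+ libraries, against 100, 100 and 207 CPM in Sca-1neg tdT+ libraries (-3.48 ± 0.50, adjusted p = 0.00267). Gli2 (chr1:118834132-119053619), the main activator upstream of Gli1 and also on the bulge factor list, averaged 11.5 ± 3.8 CPM in Sca-1+ tdT+ libraries, against 72.2 ± 30 CPM in Sca-1neg tdT+ libraries (SD, n = 3 each; adjusted p = 0.00148). In both, Sca-1neg tdT+ replicate 3, the library with the tracer and few liver transcripts, was the highest. Without that library, or without Sca-1+ tdT+ replicate 2, 5 genes of the list were lower, and with it as the only library of its group 7 were.

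BMP and TGF-beta genes were lower in part. Of 29 tested, 14 fell and 1 rose, with a median of -1.57. Bmp6, a ligand of the kind that holds bulge cells quiescent (chr13:38345107-38500302), measured 3.68, 3.63 and 6.92 CPM in Sca-1+ tdT+ libraries, against 31.4, 41.7 and 78.0 CPM in Sca-1neg tdT+ libraries (-3.41 ± 0.38, adjusted p = 0.00042). Grem1, a secreted BMP antagonist (chr2:113746164-113758646), measured 17.1, 29.1 and 26.7 CPM in Sca-1+ tdT+ libraries, against 310, 389 and 755 CPM in Sca-1neg tdT+ libraries (-4.32 ± 0.46, adjusted p = 0.000426). Bmp6 and Grem1 moved in the same direction, with Sca-1neg tdT+ replicate 3 the highest library for both. Smad6, an intracellular inhibitor and a target of BMP signals, averaged 2.31 ± 0.66 CPM in Sca-1+ tdT+ libraries, against 14.9 ± 4.3 CPM in Sca-1neg tdT+ libraries (SD, n = 3 each; -2.68 ± 0.33, adjusted p = 0.000581). Tgfbr2, the type II TGF-beta receptor, was the 1 gene that rose and is named for that, at 160, 169 and 246 CPM in Sca-1+ tdT+ libraries, against 68.3, 121 and 102 CPM in Sca-1neg tdT+ libraries (0.98 ± 0.22, adjusted p = 0.0135). With replicate 3 as the only Sca-1neg tdT+ library 15 genes were lower and 2 higher, Tgfbr2 no longer among them (adjusted p = 0.0668), and 4 were higher when Sca-1neg tdT+ replicate 2 was left out.

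Wnt pathway genes were divided, with 10 of 31 tested higher and 9 lower and a median of 0.04. Higher genes included ligands. Wnt10a (chr1:74791516-74804179) measured 156, 128 and 155 CPM in Sca-1+ tdT+ libraries, against 40.6, 55.0 and 52.7 CPM in Sca-1neg tdT+ libraries (1.57 ± 0.16, adjusted p = 0.000223). Wnt4 (chr4:137277489-137299726) measured 210, 240 and 192 CPM in Sca-1+ tdT+ libraries, against 61.3, 75.6 and 95 CPM in Sca-1neg tdT+ libraries (1.47 ± 0.17, adjusted p = 0.00042). Both are ligands that basal epidermal keratinocytes make. Wnt3a, named after its values were seen, measured 30.0, 13.7 and 17.4 CPM in Sca-1+ tdT+ libraries, against 1.54, 3.21 and 0.992 CPM in Sca-1neg tdT+ libraries (3.41 ± 0.61, adjusted p = 0.00496).

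Among the lower Wnt genes was the receptor Fzd2 (chr11:102604396-102608058), at 20.3, 24.3 and 19.3 CPM in Sca-1+ tdT+ libraries, against 245, 175 and 342 CPM in Sca-1neg tdT+ libraries (-3.58 ± 0.28, adjusted p = 6.35e-05). Dkk3, described with the bulge genes, is the other of the 4 Wnt genes with the lowest p. The number of higher Wnt genes was 4 without Sca-1neg tdT+ replicate 1, it was 5 without Sca-1+ tdT+ replicate 1 or replicate 3, and the number lower was 8 or 9 whichever library was left out. Replicate 3 alone in its group gave 4 higher and 8 lower of 32.

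Notch genes showed no common direction, with 3 of 19 tested higher, 2 lower and a median of 0.12. The shares over all genes were 5.94% higher and 6.73% lower. Notch3, a receptor, averaged 113.6 ± 20 CPM in Sca-1+ tdT+ libraries, against 48.7 ± 4.9 CPM in Sca-1neg tdT+ libraries (SD, n = 3 each; 1.22 ± 0.21, adjusted p = 0.00363). Its ligand Dll1 measured 106, 68.3 and 95.2 CPM in Sca-1+ tdT+ libraries, against 32.0, 43.5 and 32.2 CPM in Sca-1neg tdT+ libraries (1.32 ± 0.26, adjusted p = 0.00747). Lfng, a glycosyltransferase that tunes Notch to its ligands, measured 22.1, 25.4 and 31.0 CPM in Sca-1+ tdT+ libraries, against 47.6, 51.7 and 83.8 CPM in Sca-1neg tdT+ libraries (-1.22 ± 0.23, adjusted p = 0.00632). Of the 2 lower genes the second was Maml2, a coactivator (adjusted p = 0.044), and its call was lost in 9 of the 11 fits that left out 1 library, with the highest adjusted p, 0.113, without Sca-1neg tdT+ replicate 3. No Notch gene was higher and 1 was lower with replicate 3 as the only Sca-1neg tdT+ library, and Notch3 (adjusted p = 0.0842) and Dll1 (0.0574) were not called.

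**Figure D3:**
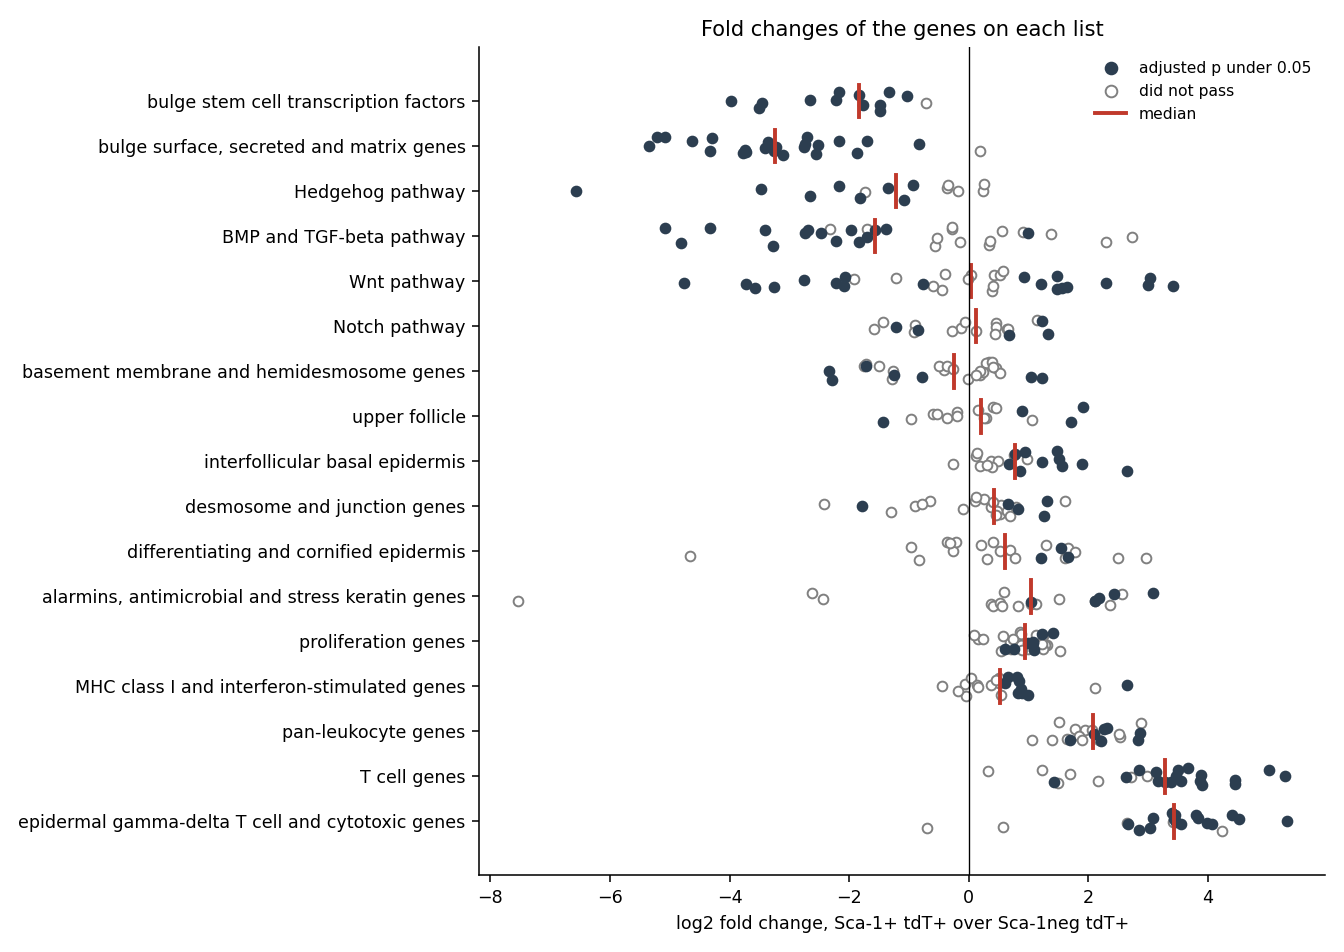
Log2 fold change, Sca-1+ tdT+ over Sca-1neg tdT+, of each tested gene on 17 lists; filled points passed the edgeR test at an adjusted p under 0.05, open points did not, and the red bar is the median of the list. Bulge lists lie to the left of 0, T cell and leukocyte lists to the right, and the Wnt list on both sides with a median of 0.04.

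Basal keratinocyte genes of the interfollicular epidermis were higher in Sca-1+ tdT+ libraries, in 10 of 20 tested, with none lower and a median of 0.77. Krt14, the type I keratin of the basal layer (chr11:100203162-100207548), measured 11350, 14630 and 9306 CPM in Sca-1+ tdT+ libraries, against 3114, 3709 and 2615 CPM in Sca-1neg tdT+ libraries. The groups lay far apart, with a difference of 1.90 ± 0.22 (adjusted p = 0.00047). Its partner Krt5, named after its values were seen, differed less, at 16210, 15600 and 13330 CPM in Sca-1+ tdT+ libraries, against 8213, 8689 and 11350 CPM in Sca-1neg tdT+ libraries (0.68 ± 0.18, adjusted p = 0.0344). The Krt5 call was lost in 8 of the 11 fits that left out 1 library (highest adjusted p = 0.112, without Sca-1neg tdT+ replicate 1). Itga6, Wnt4 and Wnt10a complete the 4 with the lowest p. Without Sca-1neg tdT+ replicate 1, 6 of the list were higher, as with replicate 3 as the only library of its group.

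Genes of the upper follicle were mixed, with 3 of 16 higher, 1 lower and a median of 0.20. Ly6d, a Ly6 protein of committed keratinocytes, measured 847, 1318 and 900 CPM in Sca-1+ tdT+ libraries, against 252, 248 and 318 CPM in Sca-1neg tdT+ libraries (1.91 ± 0.22, adjusted p = 0.000464). Klk10, a secreted kallikrein, measured 20.9, 45.5 and 30.6 CPM in Sca-1+ tdT+ libraries, against 7.61, 12.4 and 9.75 CPM in Sca-1neg tdT+ libraries (1.70 ± 0.33, adjusted p = 0.00712). Krt17, a keratin of the follicle and of stressed epidermis, was the gene that fell, at 921, 1147 and 1395 CPM in Sca-1+ tdT+ libraries, against 2605, 1833 and 4909 CPM in Sca-1neg tdT+ libraries (-1.43 ± 0.35, adjusted p = 0.023). Krt17 was no longer called without Sca-1neg tdT+ replicate 3 (adjusted p = 0.0563) or when Sca-1+ tdT+ replicate 1 (0.0839) or replicate 2 (0.064) was left out, and 5 genes were higher when Sca-1+ tdT+ replicate 1 was. Sprr1a, a cornified envelope precursor, was the other higher gene (adjusted p = 0.0418), a call lost in 6 of the 11 fits that left out 1 library, with adjusted p up to 0.129 without Sca-1+ tdT+ replicate 2. In the fit with replicate 3 as the only Sca-1neg tdT+ library, 1 gene of the list was higher and 2 lower, with a median of -0.33.

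Among the Ly6 family, 5 of the 15 tested of 20 were higher and 1 lower. Besides Ly6a and Ly6d, Ly6g5b measured 3.89, 16.3 and 6.81 CPM in Sca-1+ tdT+ libraries, against 0.589, 1.28 and 1.32 CPM in Sca-1neg tdT+ libraries (adjusted p = 0.0123). Lypd6b measured 39.3, 42.6 and 29.4 CPM in Sca-1+ tdT+ libraries, against 23.6, 20 and 18.2 CPM in Sca-1neg tdT+ libraries (adjusted p = 0.0157). Ly6h, the lower member, measured 0.0533, 0 and 0.0516 CPM in Sca-1+ tdT+ libraries, against 0.227, 1.23 and 1.87 CPM in Sca-1neg tdT+ libraries (adjusted p = 0.025). Without Sca-1+ tdT+ replicate 2, 1 Ly6 gene was higher and Ly6h was not called (adjusted p = 0.0543). It was 3 higher without Sca-1neg tdT+ replicate 1, Sca-1+ tdT+ replicate 1 or 3, or either Sca-1+ tdT- library. Ly6h was also lost without Sca-1neg tdT+ replicate 3 (0.0517) and when Sca-1+ tdT+ replicate 1 (0.0628) or 3 (0.0615) was left out. Ly6g5b was lost without Sca-1+ tdT+ replicate 2 (0.0553). Lypd6b was lost when Sca-1+ tdT+ replicate 1 (0.0506) or 2 (0.0546) was left out. The counting of reads shared by near-identical Ly6 genes such as Ly6a, Ly6c1 and Ly6c2 is not given in the sources used here, so their split is uncertain.

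Few differentiation genes passed the test. In the differentiating and cornified epidermis 3 of 22 were higher, with a median of 0.61, against 5.94% higher over all genes, and a count this small is not read as a result about the list. Casp14, the caspase of cornification, measured 53.3, 54.3 and 51.1 CPM in Sca-1+ tdT+ libraries, against 14.5, 19.4 and 16.1 CPM in Sca-1neg tdT+ libraries (1.67 ± 0.34, adjusted p = 0.00973). Grhl3, a factor of barrier formation (adjusted p = 0.0185), and Krtdap, a differentiation-linked secreted protein (adjusted p = 0.0492), were the others, and their calls were lost in 4 and 6 of the 11 fits that left out 1 library. The count of 3 was 1 with replicate 3 as the only Sca-1neg tdT+ library. It was also 1 without Sca-1neg tdT+ replicate 1 or 2 or Sca-1+ tdT+ replicate 2 or 3, and 5 without Sca-1neg tdT- replicate 1 or 2. Kallikreins, serine proteases that shed the cornified layer, were higher in 2 of the 9 tested of 10, led by Klk8 at 25.2, 55.2 and 29.3 CPM in Sca-1+ tdT+ libraries, against 7.79, 10.8 and 7.22 CPM in Sca-1neg tdT+ libraries (2.09 ± 0.31, adjusted p = 0.00194). Barrier lipid and sebaceous genes gave 2 higher of 20, also near the share over all genes: Cers3, a ceramide synthase of the epidermis, averaged 44.0 ± 12 CPM in Sca-1+ tdT+ libraries, against 15.8 ± 4.0 CPM in Sca-1neg tdT+ libraries (SD, n = 3 each; adjusted p = 0.0123), and Acsbg1, an acyl-CoA synthetase, passed at 0.0226. Acsbg1 was not called without Sca-1neg tdT+ replicate 1 (0.0673) or 3 (0.0632) or Sca-1+ tdT+ replicate 1 (0.0812) or 3 (0.0545), and without Sca-1neg tdT+ replicate 3, 4 genes of its list were lower.

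Alarmin, antimicrobial and stress keratin genes were higher in 5 of the 20 tested of 22, with none lower and a median of 1.04. Il33, an alarmin cytokine stored in nuclei of epithelial cells (chr19:29925114-29960718), measured 247, 404 and 187 CPM in Sca-1+ tdT+ libraries, against 19.1, 62.9 and 16.5 CPM in Sca-1neg tdT+ libraries. The highest Sca-1neg tdT+ value, in the library labelled replicate 2, stayed below every Sca-1+ tdT+ value, and the difference was 3.09 ± 0.55 (adjusted p = 0.00817). Il1rn, the antagonist of the IL-1 receptor, measured 127, 130 and 122 CPM in Sca-1+ tdT+ libraries, against 29.1, 40.5 and 14.6 CPM in Sca-1neg tdT+ libraries (2.17 ± 0.42, adjusted p = 0.00936). Krt16, a keratin induced in stressed epidermis, measured 379, 708 and 493 CPM in Sca-1+ tdT+ libraries, against 144, 157 and 66.6 CPM in Sca-1neg tdT+ libraries (2.10 ± 0.34, adjusted p = 0.00341). Nfkbiz, a regulator of NF-kappaB targets, measured 522, 414 and 460 CPM in Sca-1+ tdT+ libraries, against 175, 265 and 238 CPM in Sca-1neg tdT+ libraries (1.04 ± 0.18, adjusted p = 0.00459). With replicate 3 alone in its group, 4 of the list were higher.

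Basement membrane and hemidesmosome genes gave 2 higher and 5 lower of 27, against 5.94% higher and 6.73% lower over all genes, so the higher count is near that background. The counts were 2 and 2 with replicate 3 as the only Sca-1neg tdT+ library. Col4a2, a chain of type IV collagen (chr8:11312805-11449287), measured 14.9, 12.8 and 28.2 CPM in Sca-1+ tdT+ libraries, against 100, 86.3 and 85.4 CPM in Sca-1neg tdT+ libraries (-2.28 ± 0.36, adjusted p = 0.00291). Hspg2, the heparan sulphate proteoglycan perlecan, averaged 111.8 ± 13 CPM in Sca-1+ tdT+ libraries, against 266.1 ± 34 CPM in Sca-1neg tdT+ libraries (SD, n = 3 each; adjusted p = 0.00222), and Col18a1, the collagen that gives endostatin, measured 229, 230 and 211 CPM in Sca-1+ tdT+ libraries, against 927, 774 and 496 CPM in Sca-1neg tdT+ libraries (adjusted p = 0.00342). The 2 higher genes were 1 without Sca-1neg tdT+ replicate 1 or 2 or Sca-1+ tdT+ replicate 1 or 3. Desmosome and junction genes gave 4 higher and 1 lower of 24, the lower count being under the share over all genes. Pkp1, a desmosomal plaque protein, measured 2404, 2233 and 2233 CPM in Sca-1+ tdT+ libraries, against 844, 902 and 1029 CPM in Sca-1neg tdT+ libraries (1.31 ± 0.16, adjusted p = 0.000517). Cldn8, a tight junction claudin and the lower gene, measured 11.6, 13.6 and 13.4 CPM in Sca-1+ tdT+ libraries, against 36.4, 31.3 and 65.7 CPM in Sca-1neg tdT+ libraries (-1.79 ± 0.36, adjusted p = 0.00876). The 4 higher junction genes were 1 without Sca-1neg tdT+ replicate 1 or Sca-1+ tdT+ replicate 1 or 3, and 2 without Sca-1neg tdT+ replicate 2 or with replicate 3 as the only library of its group; 2 were lower without Sca-1neg tdT+ replicate 3 or Sca-1neg tdT- replicate 2.

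Outer root sheath, hair matrix and shaft genes gave 2 higher and 3 lower of the 20 tested of 21. Over all genes 5.94% were higher and 6.73% lower. Hoxc13, a homeobox factor of hair formation, measured 5.28, 7.33 and 4.23 CPM in Sca-1+ tdT+ libraries, against 22.8, 13.4 and 26.9 CPM in Sca-1neg tdT+ libraries (-1.91 ± 0.33, adjusted p = 0.00384). Gata3, which acts in the inner root sheath and in T cells alike, measured 536, 281 and 535 CPM in Sca-1+ tdT+ libraries, against 133, 174 and 192 CPM in Sca-1neg tdT+ libraries (1.44 ± 0.31, adjusted p = 0.0127), a call lost without Sca-1neg tdT+ replicate 1 (0.0547). Lower genes numbered 1 without Sca-1neg tdT+ replicate 1 or Sca-1+ tdT+ replicate 2 or 3, and higher genes 0 without Sca-1neg tdT+ replicate 1. Replicate 3 alone in its group gave 0 higher and 1 lower.

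Proliferation genes leaned higher without a firm count. All 28 had a positive fold change, with a median of 0.94, and 8 passed. Mcm6, a subunit of the replicative helicase, measured 98.4, 110 and 94.8 CPM in Sca-1+ tdT+ libraries, against 71.3, 66.2 and 60.6 CPM in Sca-1neg tdT+ libraries (0.61 ± 0.13, adjusted p = 0.0117). Cenpf, a kinetochore protein, measured 54.3, 76.0 and 39.3 CPM in Sca-1+ tdT+ libraries, against 21.2, 29.6 and 29.5 CPM in Sca-1neg tdT+ libraries (1.08 ± 0.25, adjusted p = 0.0169), and was lost without Sca-1neg tdT+ replicate 1 (0.0668) or Sca-1+ tdT+ replicate 2 (0.0692). The count of higher proliferation genes was 1 without Sca-1neg tdT+ replicate 1 or Sca-1+ tdT+ replicate 2, and leaving out Sca-1+ tdT+ replicate 3 made it 16. It was 4 without Sca-1neg tdT+ replicate 3, Sca-1neg tdT- replicate 1, Sca-1+ tdT+ replicate 1 or either Sca-1+ tdT- library. Leaving out Sca-1neg tdT- replicate 3 made it 5. With replicate 3 as the only Sca-1neg tdT+ library it was 2.

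MHC class I and interferon-stimulated genes were higher in 9 of 22, with none lower and a median of 0.52. Psmb8, an immunoproteasome subunit, measured 108, 106 and 84.9 CPM in Sca-1+ tdT+ libraries, against 59.1, 47.4 and 56.4 CPM in Sca-1neg tdT+ libraries (0.88 ± 0.17, adjusted p = 0.00752). Psmb9, its companion subunit, Nlrc5, the transactivator of MHC class I, and Tap1, the peptide transporter, passed with adjusted p of 0.0202, 0.0234 and 0.0238, and each was lost in 3 to 5 of the 11 fits that left out 1 library. The count of 9 was 4, 2 or 5 without Sca-1neg tdT+ replicate 1, 2 or 3, and 3, 5 or 4 without Sca-1+ tdT+ replicate 1, 2 or 3. Replicate 3 as the only Sca-1neg tdT+ library left 4 higher, and the calls of Psmb8 (adjusted p = 0.0955), Psmb9 (0.113), Nlrc5 (0.125) and Tap1 (0.218) were lost. Chemokines gave 2 higher and 2 lower of the 17 tested of 19, against 5.94% higher and 6.73% lower over all genes. Cxcl14, made by keratinocytes and follicles (chr13:56288643-56296551), measured 514, 370 and 344 CPM in Sca-1+ tdT+ libraries, against 1914, 2690 and 2173 CPM in Sca-1neg tdT+ libraries (-2.46 ± 0.22, adjusted p = 0.000121). Cxcl12, the ligand of Cxcr4, measured 99.4, 48.8 and 140 CPM in Sca-1+ tdT+ libraries, against 328, 292 and 291 CPM in Sca-1neg tdT+ libraries (-1.66 ± 0.33, adjusted p = 0.00931). Xcl1, a lymphocyte chemokine, measured 12.2, 23.7 and 20.5 CPM in Sca-1+ tdT+ libraries, against 2.45, 1.28 and 1.43 CPM in Sca-1neg tdT+ libraries (3.44 ± 0.63, adjusted p = 0.00546). Ccl5, also a lymphocyte chemokine, was called with all libraries (adjusted p = 0.0448) and lost in 8 of the 11 fits that left out 1 library, reaching 0.205 without Sca-1+ tdT+ replicate 3. Among chemokines, 0 were higher and 1 lower with replicate 3 alone in its group.

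T cell genes were higher in Sca-1+ tdT+ libraries. Of 25 tested, 18 rose and none fell, with a median of 3.29, against 5.94% higher and a median of -0.07 over all genes. Cd3e, a chain of the T cell receptor complex (chr9:44998740-45009627), measured 47.1, 118 and 95.5 CPM in Sca-1+ tdT+ libraries, against 3.49, 7.87 and 6.39 CPM in Sca-1neg tdT+ libraries. Its lowest Sca-1+ tdT+ value was well above the highest Sca-1neg tdT+ value, and the difference was 3.87 ± 0.46 (adjusted p = 0.000586). Cd3d, the neighbouring chain and named after its values were seen, measured 13.4, 71.5 and 33.1 CPM in Sca-1+ tdT+ libraries, against 3.49, 2.41 and 1.98 CPM in Sca-1neg tdT+ libraries (3.90 ± 0.54, adjusted p = 0.00125). For both genes Sca-1+ tdT+ replicate 1 was the lowest and replicate 2 the highest of its group.

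Cd2, a T cell adhesion receptor (chr3:101275899-101287939), averaged 24.6 ± 12 CPM in Sca-1+ tdT+ libraries, against 1.12 ± 0.48 CPM in Sca-1neg tdT+ libraries (SD, n = 3 each; 4.46 ± 0.59, adjusted p = 0.000904). Bcl11b, a factor of T cell commitment that keratinocytes also express (chr12:107910403-108003602), measured 333, 272 and 259 CPM in Sca-1+ tdT+ libraries, against 106, 94.8 and 119 CPM in Sca-1neg tdT+ libraries (1.44 ± 0.15, adjusted p = 0.000237). It had a smaller fold change than the receptor genes and the highest level among the T cell genes named here. The number of higher T cell genes ran from 16 to 20 over the fits that left out 1 library, and was 11 with replicate 3 as the only Sca-1neg tdT+ library.

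Genes of epidermal gamma-delta T cells and of cytotoxic function rose in 16 of 21 tested, with none lower and a median of 3.44. Itgae, the integrin CD103 that holds T cells to E-cadherin of the epidermis (chr11:73090583-73147446), measured 85.8, 173 and 169 CPM in Sca-1+ tdT+ libraries, against 9.11, 10.4 and 7.33 CPM in Sca-1neg tdT+ libraries (3.99 ± 0.45, adjusted p = 0.000533). Cxcr6, a chemokine receptor of tissue-resident lymphocytes, measured 24.8, 52.4 and 51.1 CPM in Sca-1+ tdT+ libraries, against 4.03, 3.70 and 4.13 CPM in Sca-1neg tdT+ libraries (3.43 ± 0.37, adjusted p = 0.000329). Cd7, an immunoglobulin family receptor of T cells, averaged 81.5 ± 29 CPM in Sca-1+ tdT+ libraries, against 6.92 ± 2.4 CPM in Sca-1neg tdT+ libraries (SD, n = 3 each; adjusted p = 0.000176). Nkg7, a cytotoxic granule protein, measured 26.3, 109 and 64.8 CPM in Sca-1+ tdT+ libraries, against 1.68, 3.27 and 3.80 CPM in Sca-1neg tdT+ libraries (4.52 ± 0.55, adjusted p = 0.000776). None of the groups of these 4 genes overlapped, and 11 to 17 genes of the list were higher whichever library was left out. The count was 11 with replicate 3 as the only Sca-1neg tdT+ library.

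Receptor constant and variable genes, named after their values were seen, came from both lineages. Trac, the alpha-chain constant gene, measured 15.5, 35.3 and 25.9 CPM in Sca-1+ tdT+ libraries, against 1.81, 1.45 and 3.25 CPM in Sca-1neg tdT+ libraries (3.56 ± 0.56, adjusted p = 0.00258). Trdc, the delta-chain constant gene, measured 53.9, 92.9 and 89.9 CPM in Sca-1+ tdT+ libraries, against 4.53, 9.16 and 13.3 CPM in Sca-1neg tdT+ libraries (3.13 ± 0.67, adjusted p = 0.017), a call lost without Sca-1neg tdT+ replicate 1 (0.0542) or 2 (0.0533). Trdv4, the delta variable gene of dendritic epidermal T cells, measured 21.1, 26.2 and 31.9 CPM in Sca-1+ tdT+ libraries, against 0.861, 5.14 and 3.69 CPM in Sca-1neg tdT+ libraries (3.03 ± 0.82, adjusted p = 0.0381), and was lost in 9 of the 11 fits that left out 1 library, reaching 0.0904 without Sca-1+ tdT+ replicate 3. Trac and Trdc levels were thus both higher in Sca-1+ tdT+ libraries. With replicate 3 as the only Sca-1neg tdT+ library the fold changes were 2.98 for Trac, 2.57 for Trdc and 2.84 for Trdv4.

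General leukocyte genes were higher in 7 of the 20 tested of 21, with a median of 2.08, and the groups did not overlap for any of the 20, all higher in Sca-1+ tdT+, against 15.4% over all genes. Ikzf1, a lymphoid transcription factor, measured 29.1, 48.2 and 47.1 CPM in Sca-1+ tdT+ libraries, against 3.85, 8.57 and 4.57 CPM in Sca-1neg tdT+ libraries (2.87 ± 0.39, adjusted p = 0.00115). Arhgdib, a GDP-dissociation inhibitor of blood cells, averaged 121.5 ± 20 CPM in Sca-1+ tdT+ libraries, against 26.1 ± 12 CPM in Sca-1neg tdT+ libraries (SD, n = 3 each; 2.22 ± 0.29, adjusted p = 0.000924). Cytip and Akna, both leukocyte genes, passed with adjusted p of 0.00398 and 0.00566. Counts of higher leukocyte genes ran from 5, without Sca-1neg tdT+ replicate 3, to 12, without Sca-1neg tdT- replicate 2. In pooled RNA, more cells of a type and more RNA per cell cannot be told apart, here and for every list above.

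Summed marker levels place these lists beside the other cell types that a skin digest can hold. Over the T cell genes the sum was 834, 1540 and 1150 CPM in Sca-1+ tdT+ libraries, against 209, 200 and 246 CPM in Sca-1neg tdT+ libraries. Bcl11b, which keratinocytes also express, took 333, 272 and 259 CPM of the Sca-1+ tdT+ sums. Of the Sca-1neg tdT+ sums it took 106, 94.8 and 119 CPM. Gamma-delta and cytotoxic genes summed to 395, 890 and 760 CPM in Sca-1+ tdT+ libraries, against 51.2, 58.6 and 56.2 CPM in Sca-1neg tdT+ libraries. Leukocyte genes summed to 736, 1238 and 1031 CPM in Sca-1+ tdT+ libraries, against 276, 328 and 118 CPM in Sca-1neg tdT+ libraries, with Ptprcap at 0 in every Sca-1+ tdT+ library. All 3 sums separated the groups, and the part of these cells in the other differences was not tested.

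**Figure D4:**
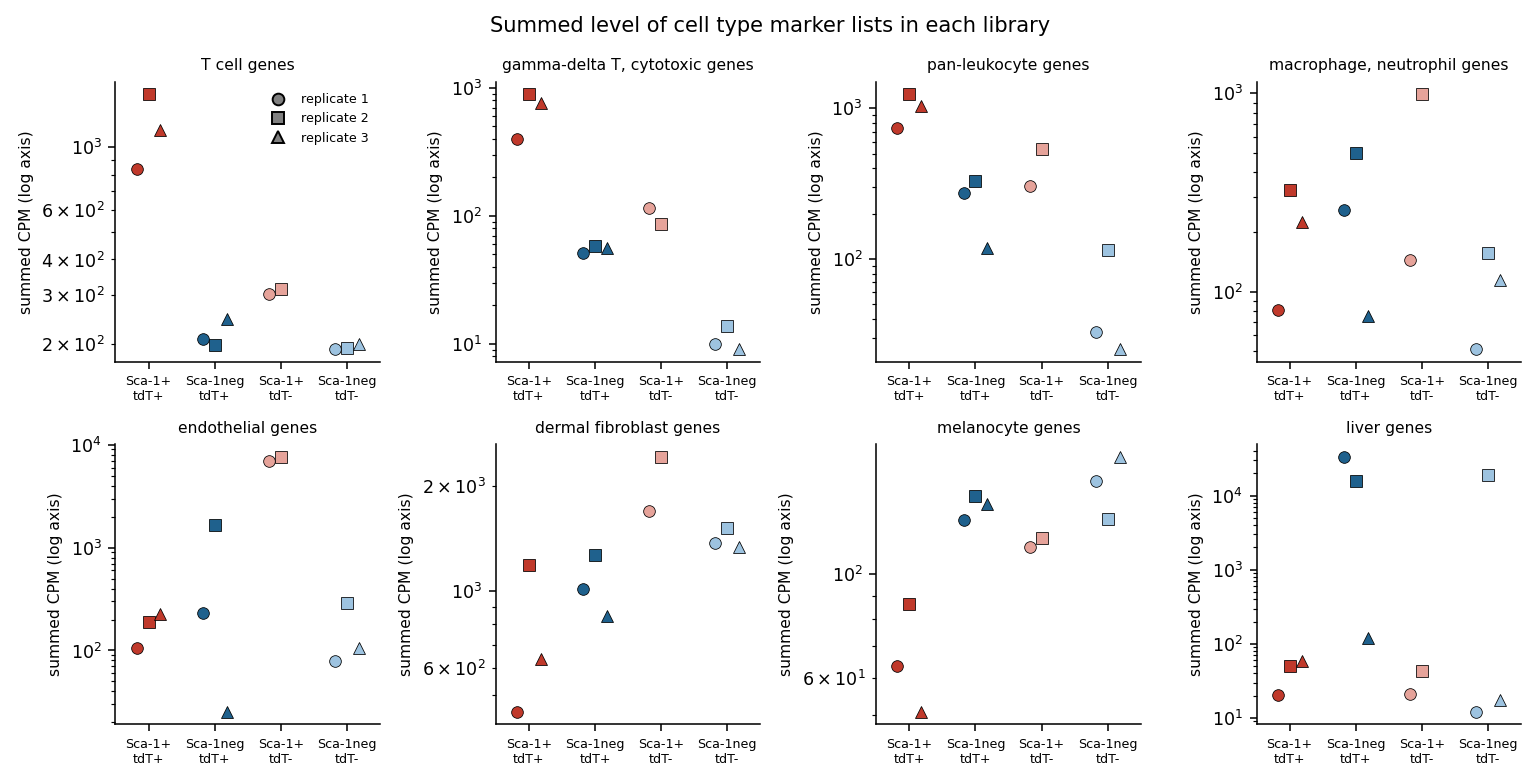
Summed level of 8 cell type marker lists in each of the 11 libraries, in CPM on a log axis, by group; symbols give the replicate. T cell, gamma-delta and leukocyte sums are highest in the 3 Sca-1+ tdT+ libraries, endothelial sums in the 2 Sca-1+ tdT- libraries, and liver sums in Sca-1neg tdT+ replicates 1 and 2 and Sca-1neg tdT- replicate 2.

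Langerhans cell and MHC class II genes gave 0 higher and 2 lower of 17, with a median of 0.34. The shares over all genes were 5.94% and 6.73%. Without Sca-1neg tdT+ replicate 2, the library that lacked the tracer, 2 were higher and 1 lower, with a median of 1.17, and with replicate 3 as the only library of its group the median was 2.38. The 2 lower genes with all libraries were Mfge8, a bridging protein (20.6, 26.3 and 33.9 CPM in Sca-1+ tdT+ libraries, against 92.5, 89.0 and 62.3 CPM in Sca-1neg tdT+ libraries; adjusted p = 0.00126), and Epcam, an adhesion molecule that follicle cells share (adjusted p = 0.0315), which was lost without Sca-1neg tdT+ replicate 2 (0.0514) or 3 (0.0825) or Sca-1+ tdT+ replicate 1 (0.103) or 2 (0.0803). Macrophage and neutrophil genes gave no call among 17 tested of 19, with Retnlg and Ly6g at 0 in the Sca-1+ tdT+ libraries. They summed to 80.4, 326 and 225 CPM in Sca-1+ tdT+ libraries, against 259, 502 and 75.3 CPM in Sca-1neg tdT+ libraries, and overlapped. Their median was -0.60 with all libraries, 0.58 without Sca-1neg tdT+ replicate 2 and 6.33 with replicate 3 as the only library of its group, so its sign turned with the libraries. B cell genes gave no call among 6 tested of 8, with sums of 8.74 to 14 CPM in Sca-1+ tdT+ libraries, against 1.76 to 17.3 CPM in Sca-1neg tdT+ libraries. Of the mast cell genes, 2 of 7 were tested and Kit, which melanocytes share, was lower (adjusted p = 0.0179); Cpa3, Mcpt4, Tpsb2 and Fcer1a were at 0 in the Sca-1+ tdT+ libraries.

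Endothelial genes summed to 105, 188 and 224 CPM in Sca-1+ tdT+ libraries, against 234, 1662 and 25.4 CPM in Sca-1neg tdT+ libraries, with the library labelled replicate 2 far above the others. With all libraries 1 of 20 was lower, Ramp2, an adrenomedullin receptor partner, at 2.56, 1.82 and 0.568 CPM in Sca-1+ tdT+ libraries, against 8.02, 22.8 and 8.87 CPM in Sca-1neg tdT+ libraries (-2.98 ± 0.54, adjusted p = 0.00629). With replicate 3 as the only Sca-1neg tdT+ library, 7 endothelial genes were higher and 1 lower, with a median of 4.09, and without Sca-1neg tdT+ replicate 3, 5 were lower, so the direction of this list turned with the library. Pericyte and smooth muscle genes gave 1 higher of 10, which was Notch3. Fibroblast genes gave 1 higher and 4 lower of 16. Col6a1 (chr10:76708792-76726168), a chain of collagen VI, measured 30.4, 22.9 and 18.4 CPM in Sca-1+ tdT+ libraries, against 258, 418 and 281 CPM in Sca-1neg tdT+ libraries (-3.74 ± 0.30, adjusted p = 6.66e-05). Sparc, a matrix-binding glycoprotein, averaged 62.7 ± 7.3 CPM in Sca-1+ tdT+ libraries, against 273.0 ± 26 CPM in Sca-1neg tdT+ libraries (SD, n = 3 each; adjusted p = 6.02e-05), and Col6a2 followed Col6a1 (adjusted p = 0.000924). Thy1, the higher gene of that list and one that mouse T cells express strongly (chr9:44043384-44048579), measured 173, 347 and 239 CPM in Sca-1+ tdT+ libraries, against 16.9, 38.4 and 18.8 CPM in Sca-1neg tdT+ libraries (3.36 ± 0.35, adjusted p = 0.000362). Without Sca-1neg tdT+ replicate 2, 2 fibroblast genes were higher, as with replicate 3 as the only library of its group, where the median was 1.58 against -0.40 with all libraries.

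Melanocyte genes gave 2 lower of 11. Mitf, the master factor of melanocytes, measured 12.5, 8.97 and 9.70 CPM in Sca-1+ tdT+ libraries, against 40.4, 79.1 and 94.2 CPM in Sca-1neg tdT+ libraries (-2.77 ± 0.37, adjusted p = 0.00119). The other was Kit, lost without Sca-1neg tdT+ replicate 1 (0.0532) or Sca-1+ tdT+ replicate 1 (0.0626) or 3 (0.06), while 5 were lower without Sca-1+ tdT+ replicate 2. Schwann cell genes gave 1 higher of 7 tested of 8, Mbp (adjusted p = 0.0201), lost without Sca-1neg tdT+ replicate 1 (0.0753) or Sca-1+ tdT+ replicate 3 (0.0714). Erythroid genes gave 2 lower of 5 tested of 6: Hba-a1, an alpha globin with a near-identical copy, measured 1.33, 0.454 and 2.12 CPM in Sca-1+ tdT+ libraries, against 22.3, 4.98 and 10.2 CPM in Sca-1neg tdT+ libraries (adjusted p = 0.00887), and Alas2 passed at 0.0246 and was lost without Sca-1neg tdT+ replicate 1 (0.102) or Sca-1+ tdT+ replicate 1 (0.0521) or 3 (0.0592). Adipocyte, skeletal muscle and Merkel cell genes gave no call among 3, 8 and 3 tested. Melanocyte genes, with replicate 3 as the only Sca-1neg tdT+ library, gave 1 higher and 1 lower, erythroid genes 1 lower, and Schwann, pericyte and mast cell genes no call. Medians over the genes tested in that fit turned positive for B cell (3.13), pericyte (0.73), skeletal muscle (0.53) and Schwann cell genes (0.75), which were negative with all libraries.

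Liver genes gave no call among 20, although the groups did not overlap for 16 of them, with a median of -8.67. All 16 were lower in Sca-1+ tdT+ libraries, against 15% over all genes. Alb measured 6.16, 15.2 and 18.6 CPM in Sca-1+ tdT+ libraries, against 9564, 4393 and 37.2 CPM in Sca-1neg tdT+ libraries (adjusted p = 0.145). Apob, the apolipoprotein of liver-made lipoproteins, measured 2.48, 7.61 and 6.19 CPM in Sca-1+ tdT+ libraries, against 5079, 2351 and 14.6 CPM in Sca-1neg tdT+ libraries (adjusted p = 0.138). Without Sca-1neg tdT- replicate 2, 19 were tested and all 19 were called lower.

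Few stress and quality genes passed the test, but ribosomal and mitochondrial genes each lay to one side. Immediate early and heat shock genes gave 2 higher of 20, against 5.94% over all genes. Dusp1, a phosphatase of MAP kinases and 1 of the 2, measured 2136, 1644 and 1400 CPM in Sca-1+ tdT+ libraries, against 756, 917 and 1089 CPM in Sca-1neg tdT+ libraries (0.91 ± 0.20, adjusted p = 0.0125). The count of 2 was 4 without Sca-1neg tdT+ replicate 3. It was 1 without Sca-1neg tdT+ replicate 1 or 2, Sca-1neg tdT- replicate 1 or 3, Sca-1+ tdT+ replicate 1 or 2, or Sca-1+ tdT- replicate 1. Ribosomal protein genes gave 2 higher of 41, under the 5.94% over all genes, with a median of 0.48. A positive fold change was seen for 40. For 19 the groups did not overlap and Sca-1+ tdT+ was higher, against 15.4% over all genes. Of the 2, Rplp0 measured 1146, 1709 and 1192 CPM in Sca-1+ tdT+ libraries, against 720, 591 and 745 CPM in Sca-1neg tdT+ libraries (0.98 ± 0.21, adjusted p = 0.0117). Mitochondrially encoded genes gave 2 lower of 6 tested of 9, mt-Nd4 (adjusted p = 0.0263) and mt-Cytb (adjusted p = 0.0428), and these were lost in 7 and 9 of the 11 fits that left out 1 library, among them those without Sca-1neg tdT+ replicate 1, 2 or 3. All 6 had a negative fold change, and for 5 the groups did not overlap, against 15% over all genes. No gene of these 3 lists was called with replicate 3 as the only Sca-1neg tdT+ library. The mitochondrial sum was 12050, 12450 and 13190 CPM in Sca-1+ tdT+ libraries, against 18040, 18330 and 17860 CPM in Sca-1neg tdT+ libraries, and its part in the other differences was not tested.

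The genes with the largest fold changes were taken, 12 in each direction, among protein-coding genes past the threshold whose groups did not overlap and whose higher group averaged 5 CPM or more. Olfr523, an olfactory receptor gene, measured 2.27, 14.1 and 3.77 CPM in Sca-1+ tdT+ libraries, but had no read in any Sca-1neg tdT+ library (adjusted p = 0.00459). Ccr8, a chemokine receptor of skin-homing T cells, measured 3.94, 4.66 and 6.81 CPM in Sca-1+ tdT+ libraries, against 0.0453, 0.0536 and 0 CPM in Sca-1neg tdT+ libraries (adjusted p = 0.00246). Ptpn5, a tyrosine phosphatase, measured 10.7, 31.5 and 27.3 CPM in Sca-1+ tdT+ libraries, against 0.861, 0.910 and 0.331 CPM in Sca-1neg tdT+ libraries (5.03 ± 0.59, adjusted p = 0.000479). B3galt5, a galactosyltransferase, measured 7.73, 33.3 and 13.3 CPM in Sca-1+ tdT+ libraries, against 0.272, 0.589 and 0.220 CPM in Sca-1neg tdT+ libraries (5.64 ± 0.74, adjusted p = 0.000904).

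Sit1 and Cd6, both T cell surface proteins, Sytl3, a synaptotagmin-like protein, and Rab37, a secretory GTPase, also kept their calls in every fit that left out 1 library, with fold changes of 5.29, 5.02, 4.91 and 4.78. With replicate 3 as the only Sca-1neg tdT+ library their fold changes were 4.72, 4.21, 7.63 and 4.74. Ifng, the cytokine interferon gamma, measured 3.30, 14 and 12 CPM in Sca-1+ tdT+ libraries, against 0.544, 0.107 and 0.0551 CPM in Sca-1neg tdT+ libraries (adjusted p = 0.0147), and was lost without Sca-1neg tdT+ replicate 2 (0.053). Cd40lg, the CD40 ligand of activated T cells, was lost without Sca-1neg tdT+ replicate 1 (0.0605). Cd8a, a co-receptor chain, measured 27.6, 85.9 and 73.5 CPM in Sca-1+ tdT+ libraries, against 1.45, 0.696 and 4.46 CPM in Sca-1neg tdT+ libraries (adjusted p = 0.0418) and was lost in 7 of the 11 fits that left out 1 library, reaching 0.125 without Sca-1neg tdT+ replicate 1. Rnase2b rested on Sca-1+ tdT+ replicate 3, at 0.453, 1.08 and 21.1 CPM in Sca-1+ tdT+ libraries, against 0.363, 0.214 and 0 CPM in Sca-1neg tdT+ libraries, and had an adjusted p of 0.328 without that library.

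At the lower end, 4 of 12 genes, Hhip among them, kept their call in every fit that left out 1 library. Kcnd3, a potassium channel, measured 0.0267, 0 and 0.0516 CPM in Sca-1+ tdT+ libraries, against 7.03, 1.66 and 12.7 CPM in Sca-1neg tdT+ libraries (adjusted p = 0.00106), with replicate 3 the highest. Rab17, an epithelial GTPase, measured 0.160, 0 and 0 CPM in Sca-1+ tdT+ libraries, against 14.8, 10.9 and 6.28 CPM in Sca-1neg tdT+ libraries (adjusted p = 0.00112). Enho, which encodes a secreted peptide, measured 0.133, 0 and 0.0516 CPM in Sca-1+ tdT+ libraries, against 13.6, 5.84 and 3.91 CPM in Sca-1neg tdT+ libraries (adjusted p = 0.00112). For Rab17 and Enho, Sca-1neg tdT+ replicates 1 and 2, the libraries with liver transcripts, were above replicate 3. The same order held for the remaining 8, Thrsp, Iyd, Cmbl, C1rl, Shroom1, Gulo, Ptprd and Atp7b. With replicate 3 as the only Sca-1neg tdT+ library the fold changes of these 8 ran from -7.21 for Thrsp to -1.66 for Cmbl. With all libraries those 2 genes had -8.84 and -7.38. Gulo, an enzyme of vitamin C synthesis that rodent liver expresses, measured 0.56, 0.17 and 1.34 CPM in Sca-1+ tdT+ libraries, against 127, 64.5 and 5.51 CPM in Sca-1neg tdT+ libraries. Over all 1366 lower genes, 60 had a replicate 3 value under 0.25 of the mean of replicates 1 and 2. Among the 1206 higher genes 2 did. A small constant was added to both values first, so genes with few reads in the Sca-1neg tdT+ libraries could hardly count. Many of the higher genes named here had few reads there, and the counts of the 2 directions are not compared.

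The Sca-1 difference among tdT+ cells was set against the same difference among tdT- cells by an interaction term. It passed for 98 of 20307 genes (0.483%), of which 3 were positive and 95 negative, and 74 of the 98 were also called between the tdT+ groups. Of 635 genes on the lists, 11 passed. Cd34 differed by -4.63 ± 0.32 in tdT+ cells and by -1.32 in tdT- cells, and the interaction was -3.31. Endothelial markers were far more abundant in the Sca-1+ tdT- fraction. They summed to 7015 and 7607 CPM there, against 104.5, 187.5 and 223.8 CPM for Sca-1+ tdT+. Their part in the tdT- differences, that of Cd34 included, was not tested. Tcf7l1 differed by -3.50 in tdT+ cells and by -0.56 in tdT- cells, with an interaction of -2.94, and for Bmp6 the interaction was -2.96. Within the bulge lists, 12 and 23 genes were lower among tdT+ cells, and 5 and 10 among tdT- cells. The tdT- counts rest on 2 Sca-1+ libraries, and counts were not tested against each other. The count of 98 was 347 without Sca-1neg tdT+ replicate 3 and 64 when Sca-1+ tdT+ replicate 1 was left out. Leaving out Sca-1neg tdT- replicates 1 and 3 gave 43 and 45, and leaving out Sca-1+ tdT- replicates 1 and 2 gave 54 and 26.

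**Figure D5:**
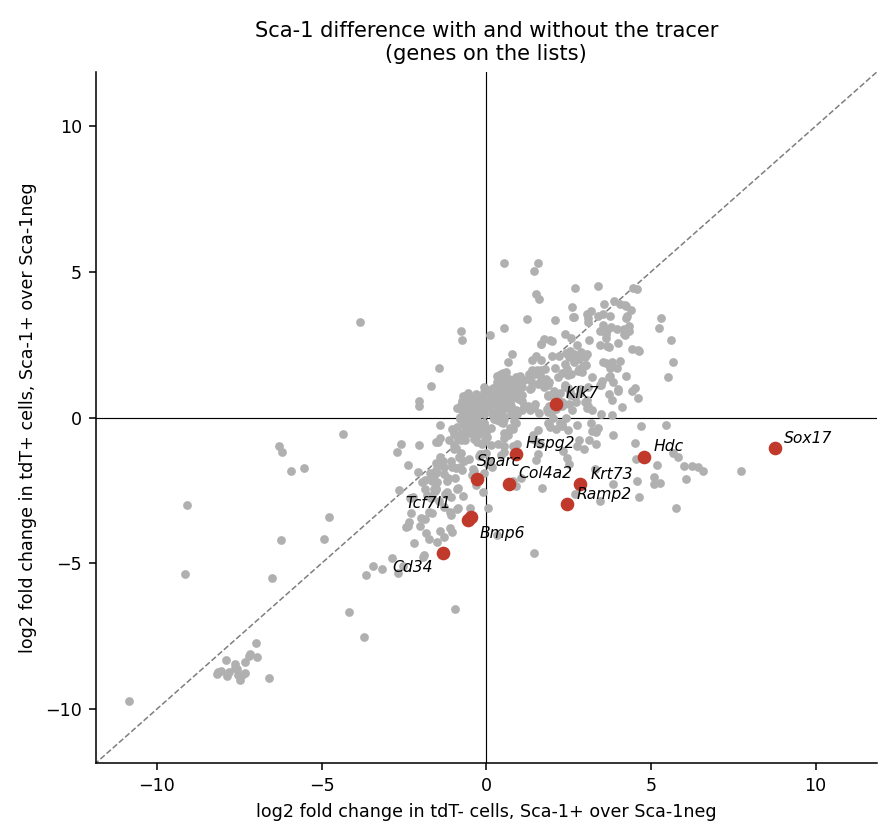
Log2 fold change, Sca-1+ over Sca-1neg, in tdT+ libraries (vertical) and in tdT- libraries (horizontal), for the 635 tested genes on the lists; each point is 1 gene and the dashed line marks equal differences. The 11 red genes passed the interaction test at an adjusted p under 0.05 and all lie below the line.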

How the data were processed

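The authors deposited gene counts, 1 file per library, for 55536 mouse Ensembl genes and 1 further entry read here as the tracer. Per the submitters' processing notes, the build was mm10 and the tools were STAR, featureCounts, DESeq2 1.18.1, FastQC and bcl2fastq 2.20.0.422. The sources used here give no annotation release, strand setting or rule for multiply mapped reads, and the TruSeq RNA v2 kit does not keep strand, so antisense and near-identical genes are uncertain. Symbols come from GENCODE M21.

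Total counts ran from 17409131 to 46542177 per library. The deposited counts were analysed with edgeR 4.0.16 in R 4.3.3: filterByExpr by group, TMM, glmQLFit with robust estimation and glmQLFTest on 4 group means over all 11 libraries (7 residual degrees of freedom), with Benjamini-Hochberg adjustment over the 20307 genes tested. CPM are TMM-scaled, except the tracer, which is a share of the total. SE is the absolute log2 fold change over the square root of F. Alternatives used DESeq2 1.42.0, limma 3.58.1, other scalings, filters, covariates and subsets of libraries. The text names the 12 genes per direction with the largest fold change, 5 per direction for the interaction, the sort markers, Cd4, and up to 4 members of each list with the lowest p. One gene that this rule names is not reported here. Others are marked as named after their values were seen. Genes, lists and libraries were chosen with earlier results of these data known.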

Additional observations from a re-analysis of the deposited data

Results flagged for a closer look

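For 18 genes named here the Sca-1 difference among tdT+ cells differed from that among tdT- cells by edgeR's interaction test at an adjusted p under 0.05. Values are the log2 difference in tdT+ cells minus that in tdT- cells. Klk7 and Hdc were named after their values were seen.

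The 3 genes with a positive value were Agap2, a GTPase-activating protein (2.56), Adamtsl5, a secreted matrix protein (1.49), and Lancl1, a glutathione-binding protein (1.15). On the bulge lists the value was -3.31 for Cd34, -2.94 for Tcf7l1 and -2.96 for Bmp6. On the basement membrane list it was -2.16 for Hspg2 and -2.96 for Col4a2. It was -5.15 for Krt73, an inner root sheath keratin, and -1.64 for Klk7, a kallikrein. In the Sca-1+ tdT- libraries Cd34 measured 320 and 383 CPM, Hspg2 659 and 859 CPM, and Col4a2 164 and 323 CPM. Those libraries had the highest endothelial sums, given below, and the part of this in these values was not tested. Over the alternatives, the call held in 21 of 22 for Cd34, Tcf7l1 and Sparc (-1.82), and in 20 of 22 for Hspg2. It held in 17 for Ramp2, 16 for Sox17 and Hdc, 15 for Thsd7a, 14 for Adamtsl5, 13 for Bmp6, 12 for Krt73 and 11 for Col4a2, and in 11 of 21 for Tmem255a. It was lost in most alternatives for Klk7 (held in 10), Agap2 and Hspa12b (9 each), Lancl1 (8) and Gria3 (7).

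Sox17, an endothelial transcription factor, had -9.81, and Ramp2 had -5.42. Other values were -7.32 for Thsd7a, -7.03 for Gria3, -6.53 for Hspa12b, -6.36 for Tmem255a, and -6.13 for Hdc, the histidine decarboxylase of mast cells. The endothelial sum was 7015 in one Sca-1+ tdT- library and 7607 CPM in the other, against 79.8 to 288.7 CPM in the Sca-1neg tdT- libraries, and the part of this in these interaction values was not tested. Sox17 itself measured 0.826, 0.511 and 1.75 CPM in Sca-1+ tdT+ libraries, against 0.770, 5.03 and 0.661 CPM in Sca-1neg tdT+ libraries, and the groups overlapped.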

How the results depend on the processing

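The counts of genes called between Sca-1+ tdT+ and Sca-1neg tdT+ libraries depended on the tool and the libraries. Against 2572 called in all (1206 higher, 1366 lower; 6064 at an unadjusted p under 0.05) and 98 with an interaction, DESeq2 called 4652 (1844 higher, 2808 lower) and 841. The interaction count was 690 with limma voom, 156 with DESeq2 size factors, 234 without the low-count filter, 172 with at least 10 CPM in 2 libraries and 220 without the libraries with liver transcripts. Fitted on the 6 tdT+ libraries alone, 1584 genes were called (689 higher, 895 lower). With replicate 3 as the only Sca-1neg tdT+ library, whose spread was then taken from the remaining groups, 1529 were called (698 higher, 831 lower). The 32-week libraries alone gave 345 (91 higher, 254 lower) and an interaction count of 0 by edgeR, with 1119 at an unadjusted p under 0.05. Requiring a log2 fold change of at least 1 left 605 higher and 1113 lower. Leaving out 1 library at a time gave 1591 to 3040 called, 610 to 1280 higher, 977 to 1760 lower and 26 to 347 with an interaction.

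Between same-numbered Sca-1+ tdT+ and Sca-1neg tdT+ libraries, deviations from the group means correlated at -0.048, -0.012 and -0.012. These values cannot decide whether replicate numbers pair the libraries. Liver transcripts and the tracer differed widely among the Sca-1neg tdT+ libraries and would mask a shared deviation. With replicate number as a block, 2571 genes were called, 1219 higher and 1352 lower, and 123 had an interaction. DESeq2 size factors moved the median log2 fold change of all genes to -0.106 and library size alone to -0.027.

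Of 145 genes followed, 134 were called, and 35 of them under every alternative that tested them (22 for Enho, 23 for the others). Fold changes turned positive for Sox17 with replicate 3 as the only Sca-1neg tdT+ library (0.64), without liver libraries (0.62) and without Sca-1neg tdT+ replicate 2 (0.52; range -1.67 to 0.52 over single libraries left out), and for Gria3 with replicate 3 only (0.04). For Col17a1 they turned negative with replicate 3 only (-0.12), without liver libraries (-0.14), at 32 weeks (-0.20) and without Sca-1+ tdT+ replicate 1 (-0.04; range -0.04 to 0.37 over single libraries left out). None of these passed the test, and the causes were not tested. Genes near 1 CPM rest on few reads, which limits them most in the shallowest library.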

Other observations

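Receptor beta variable segments were read out as deposited counts, whose intervals cover counting error only and whose split between near-identical segments is uncertain. Trbv segments held 256, 811 and 303 reads in Sca-1+ tdT+ replicates 1 to 3, and 13, 5 and 30 reads in Sca-1neg tdT+ replicates 1 to 3. The leading segment was Trbv16 in Sca-1+ tdT+ replicate 1 (90 reads, 35.2%, exact 95% interval 29.3 to 41.3), Trbv15 in replicate 2 (268 reads, 33%, 29.8 to 36.4) and Trbv17 in replicate 3 (165 reads, 54.5%, 48.7 to 60.2). Each Sca-1+ tdT+ library thus had another leading segment, with 16, 16 and 12 of 22 segments present.

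The gamma-delta segment Trdv4 held 791, 461 and 617 reads in Sca-1+ tdT+ replicates 1 to 3, and 19, 96 and 67 reads in Sca-1neg tdT+ replicates 1 to 3. Cd8a held 1037, 1513 and 1425 reads in Sca-1+ tdT+ libraries and 32, 13 and 81 reads in Sca-1neg tdT+ libraries. Its partner Cd8b1 held 401, 626 and 594 reads in Sca-1+ tdT+ libraries, and 5, 4 and 63 reads in Sca-1neg tdT+ libraries. With all libraries Cd8b1 did not pass edgeR's test between these groups. Cd4, whose promoter drives Cre, held 174, 72 and 17 reads in Sca-1+ tdT+ libraries, and 25, 1 and 22 reads in Sca-1neg tdT+ libraries.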
